A study of Mus musculus with 25 samples.

Results

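Macrophages of the injured liver were compared with monocytes sorted from the same kind of liver, over all genes and in every library of these cells. The comparison held 2 macrophage libraries and 4 monocyte libraries, of which 2 were of Ly6C-low and 2 of Ly6C-high monocytes, so that 6 of the 25 libraries of the study entered it. All 3 groups came from wild-type C57BL/6J 129SV mice that had eaten a diet with DDC for 1 week. DDC is a porphyrin-disturbing hepatotoxin used in mice to injure bile ducts and the cells around them. Livers were perfused, cells were sorted by flow cytometry and bulk RNA was sequenced. Neither the gates of the sort, the age of the mice nor whether replicates came from separate animals is given in the labels, so a p-value here reflects variation among these samples alone, and that variation could be technical. Every group has the DDC diet, so nothing below separates an effect of the diet, and the monocytes are cells of the liver, not of the blood.

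Kupffer cells are the macrophages that live in the sinusoids of the liver. They take up bacteria, dying cells and old red cells from the blood through scavenger, complement and lectin receptors, and they are marked by the lectin Clec4f and the complement receptor Vsig4. Monocytes are made in the bone marrow and reach the tissue from the blood. Ly6C-high monocytes enter injured tissue by way of the chemokine receptor Ccr2, while Ly6C-low monocytes patrol vessels and are known for Ace, Treml4 and high Cx3cr1. Either kind can turn into macrophages in the tissue.

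Depth was even, at 10226692 and 12945663 counts in macrophages, 10264570 and 10878798 in Ly6C-low and 10332321 and 8878339 in Ly6C-high libraries. The predicted gene Gm10800 took 8.85% of the counts of Ly6C-high replicate 1 and 0.318% to 4.15% of the other 5. Mitochondrial genes took 1.89% to 4.22%. Replicates correlated at 0.91 (macrophages), 0.878 (Ly6C-low) and 0.91 (Ly6C-high) on log values over 19974 genes, which are not independent, and macrophages with monocytes at 0.836 to 0.889.

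Of 27759 genes tested, 168 (0.605%) rose and 35 (0.126%) fell in macrophages against the mean of the 2 monocyte groups (edgeR quasi-likelihood F test, adjusted p under 0.05). Such genes are said to be called here. Both macrophage libraries lay outside the range of all 4 monocyte libraries for 154 of the 168 and for all 35. Over all genes tested, macrophages lay above every monocyte library for 10.8% and below every one for 10.8%. Together the 168 genes took 12.8% and 12.1% of the counts of the macrophage libraries and 1.06% to 2.47% of those of the monocyte libraries. The 35 genes took 0.0733% and 0.0767% of the macrophage counts and 0.691% to 1.41% of the monocyte counts. Median log2 fold changes were 3.54 for the genes that rose and -3.77 for those that fell, and no call was smaller than 1.85 in size. This comparison used the spread of all 12 immune cell libraries, which include normal-diet macrophages, T cells and neutrophils. Fitted on the 3 compared groups alone, 674 of 18779 genes (3.59%) were called higher and 320 (1.7%) lower. With median-of-ratios scaling over all groups, 198 were called higher and 79 lower.

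The total of 203 calls depended on single libraries. It was 75 without macrophage replicate 1, 131 without macrophage replicate 2, 89 without Ly6C-low replicate 1, 95 without Ly6C-low replicate 2, 91 without Ly6C-high replicate 1 and 142 without Ly6C-high replicate 2. It was 465 without neutrophil replicate 2, 444 without neutrophil replicate 1, 311 and 309 without each normal macrophage library and 309 without T cell replicate 1. In all 12 such fits 61 genes were called, 56 of them higher and 5 lower. For called genes named below, the libraries without which the call was lost are given, except for the genes under other observations, for which they are not given. Gene lists and their members were chosen with earlier results of these data known, so the shares of lists called are descriptive.

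**Figure D1:**
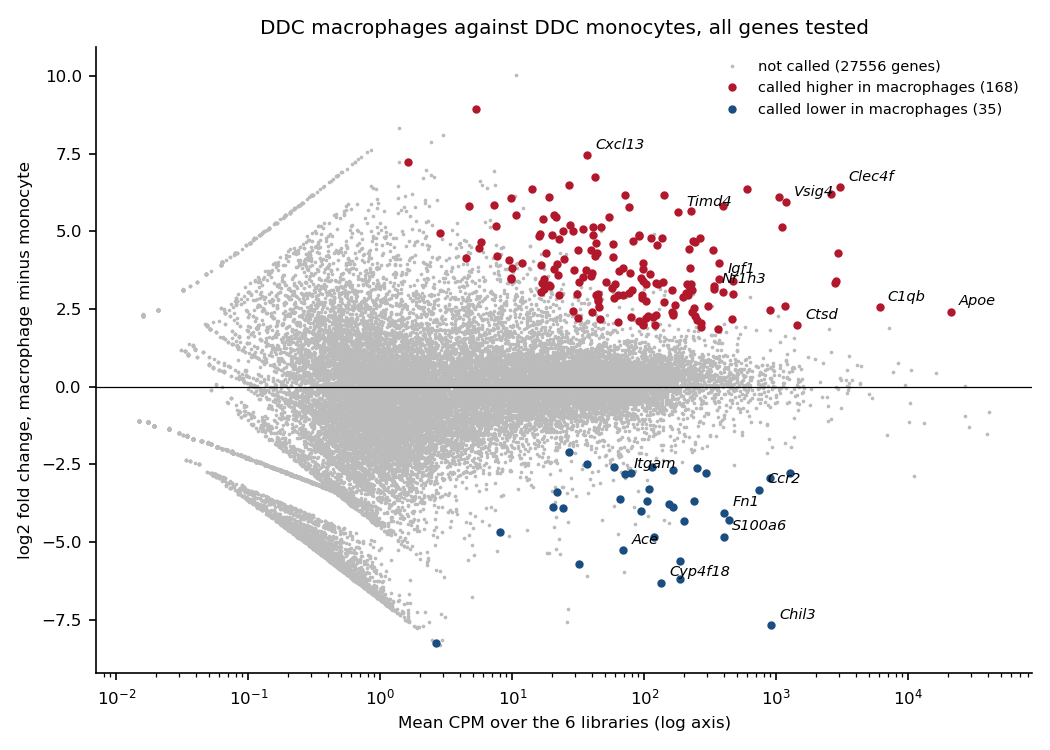
Mean CPM over the 6 libraries (log axis) against the log2 fold change of macrophages over monocytes for each of 27759 genes tested, with 168 genes called higher in red and 35 called lower in blue. Called genes lie mostly at moderate or high levels, and Clec4f, Vsig4 and Chil3 stand at the edges of the cloud.

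Of 18 Kupffer cell markers, 16 rose and none fell, with a median log2 fold change of 5.63 against -0.16 over all genes tested. Clec4f (ENSMUSG00000014542, chr6:83644542-83656187, minus strand, mm10), a lectin receptor found on Kupffer cells, was at 9609 and 8138 CPM in macrophages, 146 and 127 in Ly6C-low and 72.8 and 82.98 in Ly6C-high monocytes (CPM is the count scaled to a common library size, given in the order of replicates 1 and 2). Both macrophage libraries stood far above all 4 monocyte libraries (log2 fold change 6.43, SE 0.48, adjusted p = 2.07e-06). Vsig4 (ENSMUSG00000044206, chrX:96247203-96293438, minus strand), a receptor for complement-coated particles, was at 3721 and 3104 CPM in macrophages, 63.1 and 70.3 in Ly6C-low and 42.7 and 51.5 in Ly6C-high monocytes, again with no overlap (log2 fold change 5.93, SE 0.45, adjusted p = 2.07e-06). Cd5l, a secreted protein of tissue macrophages, was at 8245 and 6958 CPM in macrophages, 143 and 110.3 in Ly6C-low and 60.4 and 107 in Ly6C-high monocytes (log2 fold change 6.21, SE 0.54, adjusted p = 6.16e-06). Timd4, which binds phosphatidylserine on dying cells, was at 523 and 510.1 CPM in macrophages, 16.5 and 20.7 in Ly6C-low and 2.69 and 8.95 in Ly6C-high monocytes (log2 fold change 5.63, SE 0.50, adjusted p = 7.24e-06). All 4 genes had counts in every monocyte library, with both Ly6C-low libraries above both Ly6C-high ones.

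Other members of that list were Marco, a scavenger receptor for bacteria, at 2294 and 1226 CPM in macrophages, 36.6 and 34.3 in Ly6C-low and 8.67 and 16.99 in Ly6C-high monocytes (log2 fold change 6.37, adjusted p = 1.08e-04). Folr2, a folate receptor of resident macrophages, was at 109 and 48.9 CPM in macrophages, 0.623 and 0.828 in Ly6C-low and 0.896 and 1.15 in Ly6C-high monocytes (log2 fold change 6.50, adjusted p = 8.19e-05). Cd163, the receptor for hemoglobin bound to haptoglobin, was at 305 and 447 CPM in macrophages, 10.1 and 28.4 in Ly6C-low and 8.67 and 10.7 in Ly6C-high monocytes (log2 fold change 4.78, adjusted p = 1.83e-04). Cd207, C6, Cdh5, Fabp7, Pcolce2, Gfra2, Kcna2, Il18bp and Adrb1 also rose, with log2 fold changes from 3.92 (Adrb1) to 6.17 (C6). The call of Adrb1 was lost without any of the compared libraries except macrophage replicate 1, with adjusted p up to 0.577. Slc16a9 was at 14.1 and 28.9 CPM against 1.51, 0, 0 and 0.115 CPM (adjusted p = 0.0671) and Xlr3a at 5.30 and 0 CPM against 1.60, 1.35, 2.24 and 1.03 CPM (adjusted p = 1.00), and neither passed. Summed over the list, the markers came to 28190.5 and 23849.8 CPM in macrophages and 237 to 602 CPM in monocytes. The monocyte sums were 0.912% to 2.31% of the macrophage mean, at 602 and 515 CPM in Ly6C-low and 237 and 352 CPM in Ly6C-high libraries. Whether that low level came from a few macrophages in the monocyte sort or from the monocytes was not tested. In bulk libraries fewer cells of a type and less RNA per cell cannot be told apart.

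Markers shared by many macrophages differed less. Of 14 core macrophage markers, 4 rose and none fell, and the count was 2 without macrophage replicate 2, Ly6C-low replicate 1 or Ly6C-high replicate 1. The 4 were the complement subunits C1qa, C1qb and C1qc and the mannose receptor Mrc1. C1qa was at 8071 and 6265 CPM in macrophages, 697 and 995 in Ly6C-low and 462 and 634 in Ly6C-high monocytes (log2 fold change 3.40, adjusted p = 7.65e-04) and C1qc at 8229 and 5751 CPM in macrophages, 519 and 1134 in Ly6C-low and 527 and 620.3 in Ly6C-high monocytes (log2 fold change 3.34, adjusted p = 6.90e-04). C1qb was at 13507 and 13436 CPM in macrophages, 1985 and 3515 in Ly6C-low and 1975 and 1853 in Ly6C-high monocytes (log2 fold change 2.55, adjusted p = 0.0128) and Mrc1 at 368 and 606 CPM in macrophages, 136 and 143 in Ly6C-low and 45.9 and 75.3 in Ly6C-high monocytes (log2 fold change 2.41, adjusted p = 0.0103). The call of C1qb was lost without either macrophage library, Ly6C-low replicate 1 or Ly6C-high replicate 1, with adjusted p up to 0.115. The call of Mrc1 was lost without macrophage replicate 2, either Ly6C-low library or Ly6C-high replicate 1, with adjusted p up to 0.183. Adgre1, which encodes F4/80, was at 969 and 953 CPM in macrophages, 171 and 261 in Ly6C-low and 366 and 239 in Ly6C-high monocytes and did not pass (adjusted p = 0.0536). Csf1r, the receptor for the growth factor that keeps both cell kinds alive, was at 2212 and 2906 CPM in macrophages, 904 and 1409.5 in Ly6C-low and 1569 and 1492 in Ly6C-high monocytes (adjusted p = 0.839).

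**Figure D2:**
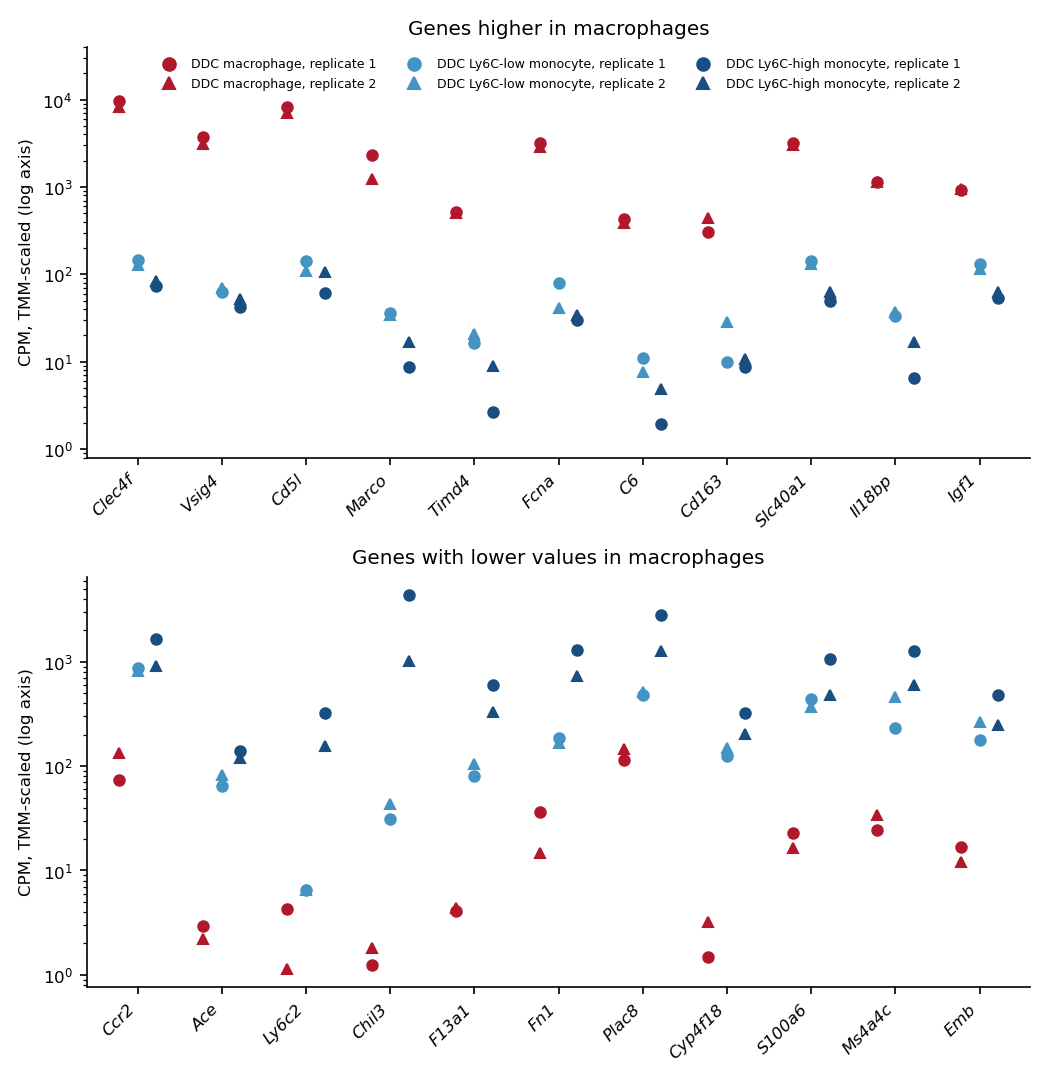
CPM on a log axis for 11 genes called higher and 11 genes with lower values in macrophages, 1 point per library (red macrophages, light blue Ly6C-low, dark blue Ly6C-high monocytes). Both macrophage points lie above all monocyte points for the first 11 genes and under them for the other 11. Ly6c2 did not pass the test. Among the 11 lower genes the 2 monocyte groups overlap for Emb alone, and they lie furthest apart for Chil3 and Ly6c2.

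Of 13 markers of Ly6C-high monocytes, 6 fell in macrophages, 7 did not pass and none rose, with a median log2 fold change of -3.31. That count was 1 without macrophage replicate 1 and 2 without macrophage replicate 2. Ccr2 (ENSMUSG00000049103, chr9:124101950-124113557, plus strand), the receptor that brings monocytes out of the marrow and into inflamed tissue, was at 74.2 and 135 CPM in macrophages, 869 and 818 in Ly6C-low and 1652 and 908 in Ly6C-high monocytes. Macrophages were below all monocytes of both kinds (log2 fold change -3.31, SE 0.58, adjusted p = 0.00745). Chil3, a secreted chitinase-like protein, was at 1.23 and 1.81 CPM in macrophages, 31.3 and 43.1 in Ly6C-low and 4334 and 1019 in Ly6C-high monocytes (log2 fold change -7.67, SE 1.20, adjusted p = 0.0025), so that all monocytes were above macrophages and the Ly6C-high ones far above the Ly6C-low ones. F13a1, a clotting factor subunit made by monocytes, was at 4.07 and 4.38 CPM in macrophages, 81.1 and 104 in Ly6C-low and 601 and 328 in Ly6C-high monocytes (log2 fold change -5.61, SE 1.02, adjusted p = 0.0105). Fn1, or fibronectin, was at 36.1 and 14.8 CPM in macrophages, 185 and 168 in Ly6C-low and 1291 and 733 in Ly6C-high monocytes (log2 fold change -4.05, adjusted p = 0.00552), Plac8 at 115 and 147 CPM in macrophages, 477 and 510.0 in Ly6C-low and 2835 and 1267 in Ly6C-high monocytes (log2 fold change -2.94, adjusted p = 0.00596) and Gpr141 at 3.95 and 8.19 CPM in macrophages, 107 and 206 in Ly6C-low and 207 and 176 in Ly6C-high monocytes (log2 fold change -4.83, adjusted p = 7.62e-04). The calls of Ccr2 and Gpr141 were lost without macrophage replicate 1, with adjusted p of 0.24 and 0.0524. The calls of Chil3, F13a1 and Plac8 were lost without either macrophage library, with adjusted p up to 0.123, 0.27 and 0.18. The call of Fn1 was lost without macrophage replicate 2, with adjusted p of 0.124.

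Ly6c2, the gene of the antigen by which the 2 monocyte groups are named, was at 4.32 and 1.14 CPM in macrophages, 6.49 and 6.52 in Ly6C-low and 325 and 155 in Ly6C-high monocytes. Ly6C-high libraries were well above the other 4, and macrophages were slightly below the Ly6C-low libraries, without passing the test against all monocytes (log2 fold change -3.87, adjusted p = 0.103). On the 3 compared groups alone and by DESeq2 it was called lower, while with median-of-ratios scaling or the monocytes as 1 group it was not called. Ly6c1, a near-identical neighbor whose reads may be split with it, was at 2.96 and 0.0953 CPM against 0.267, 1.14, 0.448 and 0.115 CPM for macrophages against monocytes. S100a4 had no count in macrophages and 1.66 to 4.18 CPM in monocytes (adjusted p = 0.425).

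Genes known for Ly6C-low monocytes were called in both directions. Of 15, 11 had negative and 4 positive log2 fold changes (median -0.39, against -0.16 over all genes tested). Cd36 and Cd300e rose and Ace and Pglyrp1 fell. The count of rises was 0 without either macrophage library, Ly6C-low replicate 1 or Ly6C-high replicate 1 and 1 without Ly6C-low replicate 2 or Ly6C-high replicate 2, and that of falls was 0 without any of the compared libraries except Ly6C-high replicate 2 and 1 without Ly6C-high replicate 2. Ace (ENSMUSG00000020681, chr11:105967945-105989964, plus strand), the angiotensin-converting enzyme, was at 2.96 and 2.19 CPM in macrophages, 65.1 and 83.1 in Ly6C-low and 141 and 119.6 in Ly6C-high monocytes. Macrophages were below all monocytes (log2 fold change -5.25, SE 1.16, adjusted p = 0.0413), and its highest levels were in the Ly6C-high libraries. Pglyrp1, which binds bacterial peptidoglycan, was at 11.2 and 15.3 CPM in macrophages, 50.9 and 86.5 in Ly6C-low and 374 and 118 in Ly6C-high monocytes (log2 fold change -3.29, adjusted p = 0.0316). Cd36, a fatty acid and scavenger receptor, was at 279 and 244 CPM in macrophages, 65.7 and 68.5 in Ly6C-low and 33.3 and 49.6 in Ly6C-high monocytes (log2 fold change 2.31, adjusted p = 0.0107), and Cd300e, an activating receptor of myeloid cells, at 111 and 84.8 CPM in macrophages, 8.72 and 24.02 in Ly6C-low and 5.83 and 2.75 in Ly6C-high monocytes (log2 fold change 3.55, adjusted p = 0.0111). The call of Ace was lost without any of the 6 compared libraries, with adjusted p up to 0.615. The calls of Pglyrp1 and Cd36 were lost without any of the compared libraries except Ly6C-high replicate 2, with adjusted p up to 0.572 and 0.152. The call of Cd300e was lost without any of the compared libraries except Ly6C-low replicate 2, with adjusted p up to 0.18. Treml4 (605 and 568 CPM against 122, 262, 316 and 174 CPM) and Nr4a1 (159 and 361 CPM against 316, 321, 538 and 511 CPM), the latter the factor that Ly6C-low monocytes need, did not pass.

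The labels of the 2 monocyte groups were held against these markers. Both Ly6C-high libraries were above both Ly6C-low libraries for 10 of the 13 Ly6C-high markers and the reverse held for none. For the 15 Ly6C-low markers the Ly6C-low libraries were above the Ly6C-high ones for 3 and below them for 4, with no common direction. The share of all genes that separate the monocyte groups in this way was not computed, so these counts cannot be set against all genes. Over all groups edgeR called 0 markers of either list between the monocyte groups. On the 3 compared groups alone it called 3 Ly6C-high markers higher in Ly6C-high libraries and 0 Ly6C-low markers. Median log2 fold changes of Ly6C-high minus Ly6C-low were 2.06 for the Ly6C-high markers and 0.23 for the Ly6C-low markers, against 0.000323 over all genes tested. Cx3cr1 was at 77.1 and 98.2 CPM in macrophages, 212 and 223 in Ly6C-low and 365 and 222 in Ly6C-high monocytes and Treml4 at 605 and 568 CPM in macrophages, 122 and 262 in Ly6C-low and 316 and 174 in Ly6C-high monocytes, with the 2 monocyte groups overlapping. Higher in the Ly6C-low libraries was Itgax, the integrin CD11c, at 49.8 and 112 CPM in macrophages, 214 and 373 in Ly6C-low and 48.1 and 80.6 in Ly6C-high monocytes (Ly6C-high minus Ly6C-low log2 fold change -2.19, unadjusted p = 0.00339, adjusted p = 1.00). H2-DMb2, a subunit of the peptide loader of class II molecules, was at 56.97 and 46.8 CPM in macrophages, 325 and 769.6 in Ly6C-low and 93.4 and 67.5 in Ly6C-high monocytes (log2 fold change -2.77, unadjusted p = 1.64e-04, adjusted p = 0.643). Cd209a, a lectin of monocyte-derived dendritic cells, was at 1.23 and 0 CPM in macrophages, 56.6 and 57.6 in Ly6C-low and 10.9 and 11.6 in Ly6C-high monocytes.

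Taken singly, each monocyte group gave fewer calls in total than their mean, although falls against Ly6C-high (38) outnumbered those against the mean (35). Against Ly6C-low monocytes 53 genes (0.191%) rose and 13 (0.0468%) fell in macrophages. Against Ly6C-high monocytes 108 (0.389%) rose and 38 (0.137%) fell. The total of 66 against Ly6C-low became 27 and 30 without macrophage replicates 1 and 2, 17 and 5 without Ly6C-low replicates 1 and 2, 104 and 101 without normal macrophage replicates 1 and 2, and 194 and 204 without neutrophil replicates 1 and 2. The total of 146 against Ly6C-high became 53 without macrophage replicate 1, 35 and 75 without Ly6C-high replicates 1 and 2, 248 and 239 without normal macrophage replicates 1 and 2, 221 without T cell replicate 1, and 299 and 307 without neutrophil replicates 1 and 2. The test of the difference between these is Ly6C-high against Ly6C-low itself, in which 0 genes (0%) were called by edgeR, with 461 at an unadjusted p under 0.05. DESeq2 called 8 higher and 20 lower in Ly6C-high, and edgeR on the 3 compared groups 5 and 11. Chil3 (log2 fold change 6.17, unadjusted p = 3.93e-05, adjusted p = 0.364) and Ly6c2 (log2 fold change 5.20, unadjusted p = 1.85e-04, adjusted p = 0.643) were far higher in the Ly6C-high libraries without passing. Among the 168 genes higher in macrophages, the Ly6C-low mean was over 2 times the Ly6C-high mean for 69 and the reverse held for 15. Among the 35 lower genes the Ly6C-high mean was over 2 times the Ly6C-low mean for 14 and the reverse held for 2. These last counts describe the levels and were not tested. The share of all genes with such a ratio was not computed, and the same monocyte libraries entered the comparison that chose these genes. The counts therefore do not show which monocytes are nearer to macrophages.

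Beyond the marker list, the lower genes included Cyp4f18, which breaks down leukotriene B4 in myeloid cells, at 1.48 and 3.24 CPM in macrophages, 125 and 151 in Ly6C-low and 320.0 and 203 in Ly6C-high monocytes (log2 fold change -6.31, adjusted p = 8.50e-05). S100a6, a calcium-binding protein, was at 22.8 and 16.5 CPM in macrophages, 439 and 366 in Ly6C-low and 1064 and 484 in Ly6C-high monocytes (log2 fold change -4.83, adjusted p = 4.38e-04), Emb, an adhesion protein that escorts monocarboxylate carriers, at 16.6 and 12.1 CPM in macrophages, 177 and 266 in Ly6C-low and 486 and 249.6 in Ly6C-high monocytes (log2 fold change -4.31, adjusted p = 7.62e-04), and Ms4a4c at 24.7 and 34.1 CPM in macrophages, 232 and 463 in Ly6C-low and 1282 and 606 in Ly6C-high monocytes (log2 fold change -4.28, adjusted p = 7.62e-04). In all 4 the macrophages were below every monocyte library and no single library decided the call. Nfe2, a factor of blood cell precursors and platelets, was at 0 and 1.43 CPM against 19.4, 22.98, 110.0 and 38.7 CPM (log2 fold change -5.71, adjusted p = 0.0218), and Gpr183, a receptor for oxysterols that guides cell migration, at 9.86 and 7.43 CPM against 117, 147, 171 and 115 CPM (log2 fold change -3.99, adjusted p = 0.0111). The call of Nfe2 was lost without macrophage replicate 1, either Ly6C-low library or Ly6C-high replicate 1, with adjusted p up to 0.256. The call of Gpr183 was lost without either macrophage library, with adjusted p up to 0.199.

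Of 17 scavenger and lectin receptors, 6 rose (Marco, Cd163, Clec1b, Cd209f, Cd36 and Mrc1) and 2 fell (Clec4e and Clec4d). Falls numbered 0 without either macrophage library and 1 without either Ly6C-low library or either Ly6C-high library. Clec1b, the podoplanin receptor also called CLEC-2, was at 622 and 724 CPM in macrophages, 16.5 and 25.5 in Ly6C-low and 23.9 and 43.4 in Ly6C-high monocytes (log2 fold change 4.66, SE 0.48, adjusted p = 3.60e-05). Cd209f and Cd209g, lectins of the DC-SIGN family, were at 283 and 156 CPM against 7.29, 2.28, 1.49 and 4.94 CPM and 154 and 96.3 CPM against 2.31, 1.55, 1.05 and 0.344 CPM for macrophages against monocytes, with log2 fold changes of 5.79 and 6.75. Fcna, a ficolin that starts the lectin pathway of complement, was at 3172 and 2878 CPM in macrophages, 78.8 and 41.2 in Ly6C-low and 30.3 and 34.2 in Ly6C-high monocytes (log2 fold change 6.10, SE 0.47, adjusted p = 2.07e-06). Clec4e, known as Mincle and a receptor for mycobacterial glycolipid, was at 4.93 and 7.81 CPM in macrophages, 33.7 and 51.5 in Ly6C-low and 169.7 and 124 in Ly6C-high monocytes (log2 fold change -3.63, adjusted p = 0.0111) and its neighbor Clec4d at 7.40 and 8.003 CPM in macrophages, 19.04 and 23.7 in Ly6C-low and 47.1 and 56.9 in Ly6C-high monocytes (log2 fold change -2.11, adjusted p = 0.0481). Both were lowest in macrophages and highest in Ly6C-high monocytes. The call of Clec4e was lost without either macrophage library, with adjusted p up to 0.325. The call of Clec4d was lost without any of the 6 compared libraries, with adjusted p up to 0.667. Cd36 and Mrc1 lost their calls as given above.

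Of 20 complement components and receptors, 8 rose (C1qa, C1qb, C1qc, C4b, C6, Cfp, Vsig4 and Serping1) and 1 fell (Itgam). Rises numbered 5 without macrophage replicate 1, Ly6C-low replicate 1 or Ly6C-high replicate 1, and the fall was absent without any of the 6 compared libraries. C6, a part of the membrane attack complex, was at 429 and 384 CPM in macrophages, 11.03 and 7.66 in Ly6C-low and 1.94 and 4.82 in Ly6C-high monocytes (log2 fold change 6.17, SE 0.48, adjusted p = 2.07e-06), and C4b at 108 and 123 CPM in macrophages, 5.69 and 0.932 in Ly6C-low and 2.09 and 4.25 in Ly6C-high monocytes (log2 fold change 5.14, adjusted p = 8.91e-05). Cfp, or properdin, which stabilizes the alternative pathway convertase, was at 2854 and 2358 CPM in macrophages, 378 and 658 in Ly6C-low and 387 and 324 in Ly6C-high monocytes (log2 fold change 2.60, adjusted p = 0.0259). Itgam, the CD11b subunit of complement receptor CR3, was at 12.6 and 15.7 CPM in macrophages, 113 and 64.2 in Ly6C-low and 119 and 106 in Ly6C-high monocytes (log2 fold change -2.81, adjusted p = 0.041). Serping1, the C1 inhibitor, was at 83.9 and 16.5 CPM in macrophages, 13.3 and 7.14 in Ly6C-low and 1.05 and 1.49 in Ly6C-high monocytes (log2 fold change 3.79, adjusted p = 0.0385), with its highest level in macrophage replicate 1. The calls of Cfp and Itgam were lost without any of the 6 compared libraries, with adjusted p up to 0.256 and 0.67. The call of Serping1 was lost without any of the compared libraries except macrophage replicate 2, with adjusted p up to 1.00.

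Of 20 genes for clearance of apoptotic cells, 4 rose, namely Timd4 and the 3 C1q subunits, and Anxa1, an inhibitor of inflammation that binds phospholipid, fell (55.2 and 48.3 CPM against 164, 241, 738 and 261 CPM, log2 fold change -2.62, adjusted p = 0.0465). The call of Anxa1 was lost without any of the compared libraries except Ly6C-high replicate 2, with adjusted p up to 0.524. The receptor kinases Mertk (222 and 480.3 CPM against 96.5, 152, 88.9 and 181 CPM, adjusted p = 0.396) and Axl (670.3 and 869 CPM against 433, 492, 247 and 285 CPM, adjusted p = 0.307) did not pass, although macrophages were above all monocytes. Tyro3, the third of that family, had no count in macrophages and 1.79 to 3.31 CPM in monocytes (adjusted p = 0.316). None of 8 Fc receptors passed. Fcgr2b, the inhibitory receptor for IgG, was at 128 and 103 CPM in macrophages, 524 and 664 in Ly6C-low and 860.4 and 608 in Ly6C-high monocytes (adjusted p = 0.0628), and Fcgrt, which rescues IgG and albumin from degradation, was at 1324 and 1331 CPM in macrophages, 272 and 541 in Ly6C-low and 367 and 336 in Ly6C-high monocytes (adjusted p = 0.129). Both were called on the 3 compared groups alone and by DESeq2, Fcgr2b as lower and Fcgrt as higher. Neither was called with the monocytes as 1 group.

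Of 19 genes for the recycling of red cell iron, 6 rose and none fell, with a median log2 fold change of 1.47, and the count was 3 without Ly6C-low replicate 1. Slc40a1, or ferroportin, the exporter of iron, was at 3193 and 3024 CPM in macrophages, 142 and 130.5 in Ly6C-low and 49.9 and 62.6 in Ly6C-high monocytes (log2 fold change 5.15, SE 0.42, adjusted p = 3.42e-06). Blvrb, which reduces biliverdin, was at 1058 and 828 CPM in macrophages, 91.7 and 111 in Ly6C-low and 142 and 114 in Ly6C-high monocytes (log2 fold change 3.05, SE 0.46, adjusted p = 0.00203). Slc48a1, the carrier that moves heme out of the phagolysosome, was at 425 and 272 CPM in macrophages, 48.04 and 70.1 in Ly6C-low and 84.4 and 84.2 in Ly6C-high monocytes (log2 fold change 2.30, adjusted p = 0.0083). Hmox1, or heme oxygenase, which opens the heme ring, was at 1027 and 877 CPM in macrophages, 192 and 133 in Ly6C-low and 395 and 159 in Ly6C-high monocytes (log2 fold change 2.16, adjusted p = 0.0253). Cd163 belongs to this list too. Hpx, the plasma heme binder hemopexin, was at 621 and 59.5 CPM in macrophages, 68.8 and 44.1 in Ly6C-low and 5.38 and 32.6 in Ly6C-high monocytes (log2 fold change 3.37, adjusted p = 0.0324), a pattern led by macrophage replicate 1, in which hepatocyte markers were also highest (summed 2988 and 333 CPM in macrophages and 51.4 to 711 CPM in monocytes). The part of hepatocyte RNA in that value was not tested. The call of Slc48a1 was lost without macrophage replicate 1, Ly6C-low replicate 1 or Ly6C-high replicate 1, with adjusted p up to 0.259. The call of Hmox1 was lost without any of the compared libraries except Ly6C-high replicate 1, with adjusted p up to 0.285. The call of Hpx was lost without macrophage replicate 1, either Ly6C-low library or Ly6C-high replicate 1, with adjusted p up to 1.00. Spic, the factor that heme induces in red pulp and marrow macrophages, was at 138 and 386 CPM in macrophages, 63.3 and 77.7 in Ly6C-low and 71.3 and 48.9 in Ly6C-high monocytes and did not pass (adjusted p = 0.0536). The ferritin chains Ftl1 (5733 and 4844 CPM against 1874, 2477, 3654 and 2861 CPM) and Fth1 (10757 and 7821 CPM against 5231, 7369.9, 9053 and 5497 CPM) did not pass either.

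Of 21 genes for cholesterol efflux and lipoproteins, 4 rose (Apoe, Lpl, Apoc1 and Scd1) and none fell, and the count was 0 without macrophage replicate 1 and 2 without Ly6C-low replicate 1. Apoe, the apolipoprotein that carries cholesterol out of macrophages, was at 42258 and 48562 CPM in macrophages, 7201 and 13622 in Ly6C-low and 7928 and 6091 in Ly6C-high monocytes (log2 fold change 2.41, adjusted p = 0.0366). Lpl, or lipoprotein lipase, was at 1229 and 1010.4 CPM in macrophages, 195 and 173 in Ly6C-low and 87.4 and 135 in Ly6C-high monocytes (log2 fold change 2.97, adjusted p = 0.00508), Apoc1 at 1605 and 738 CPM in macrophages, 222 and 79.9 in Ly6C-low and 94.6 and 70.01 in Ly6C-high monocytes (log2 fold change 3.39, adjusted p = 0.00206) and Scd1, a desaturase of fatty acids, at 283 and 100.1 CPM in macrophages, 48.9 and 18.7 in Ly6C-low and 4.78 and 9.07 in Ly6C-high monocytes (log2 fold change 3.64, adjusted p = 0.00125). For Apoc1 and Scd1 macrophage replicate 1 was above replicate 2, as it was for the hepatocyte markers, whose part in these values was not tested. The call of Apoe was lost without any of the 6 compared libraries or either T cell library, with adjusted p up to 0.234. The call of Lpl was lost without macrophage replicate 1 or Ly6C-low replicate 1, with adjusted p up to 0.0668. The calls of Apoc1 and Scd1 were lost without macrophage replicate 1, with adjusted p of 0.0778 and 0.105. Abca1 and Abcg1, the efflux pumps, were at 114 and 259.9 CPM against 77.04, 75.6, 40.8 and 54.1 CPM (adjusted p = 0.474) and 482 and 449.7 CPM against 328, 233, 282 and 202 CPM (adjusted p = 0.885).

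Mrap, an accessory protein of melanocortin receptors that acts in fat cells too, was at 48.7 and 32.96 CPM against 0.979, 1.24, 0.448 and 0 CPM (log2 fold change 6.36, adjusted p = 0.00157), and Mpzl1, a membrane glycoprotein that signals through tyrosine phosphatases, at 67.3 and 41.2 CPM against 0.445, 0.104, 0.896 and 3.21 CPM (log2 fold change 6.12, adjusted p = 1.98e-04).

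Of 14 genes known from lipid-associated macrophages of diseased liver and fat, 4 rose (Mmp12, Lpl, Cd63 and Apoe), a count that was 1 without macrophage replicate 1 or Ly6C-low replicate 1 and 2 without macrophage replicate 2, Ly6C-low replicate 2 or either Ly6C-high library. Mmp12, macrophage elastase, was at 489 and 463 CPM in macrophages, 109 and 173 in Ly6C-low and 15.1 and 18.2 in Ly6C-high monocytes (log2 fold change 3.30, adjusted p = 8.73e-04), with Ly6C-low monocytes between macrophages and Ly6C-high ones. Cd63, a tetraspanin of lysosomes, was at 491 and 526 CPM in macrophages, 219 and 225 in Ly6C-low and 69.3 and 67.3 in Ly6C-high monocytes (log2 fold change 2.05, adjusted p = 0.017). The call of Cd63 was lost without any of the 6 compared libraries, with adjusted p up to 0.134. Best known of that state are Trem2, Gpnmb and Cd9, which did not pass and overlapped between the groups. Trem2 was at 169 and 248 CPM against 149, 233, 275 and 229.5 CPM, Gpnmb at 70.7 and 137 CPM against 87.8, 139.7, 78.9 and 137 CPM and Cd9 at 173 and 196 CPM against 196, 206, 118 and 104 CPM for macrophages against monocytes. Spp1, or osteopontin, was at 92.7 and 82.3 CPM in macrophages, 370.0 and 367 in Ly6C-low and 314 and 221 in Ly6C-high monocytes, below all monocytes without passing (adjusted p = 0.644).

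Few transcription factors were called. Of 15 factors of Kupffer cells and other macrophages, Nr1h3 and Rxra rose and none fell, and the count was 1 without macrophage replicate 2, Ly6C-low replicate 1 or Ly6C-high replicate 1 and 4 without either T cell library or either normal macrophage library and 5 without either neutrophil library. Nr1h3, the sterol receptor LXR-alpha, was at 886 and 744 CPM in macrophages, 83.98 and 148 in Ly6C-low and 63.2 and 85.2 in Ly6C-high monocytes (log2 fold change 3.13, SE 0.43, adjusted p = 7.62e-04). Its partner Rxra was at 233 and 225 CPM in macrophages, 13.1 and 41.3 in Ly6C-low and 22.6 and 42.4 in Ly6C-high monocytes (log2 fold change 2.95, SE 0.55, adjusted p = 0.0128). The call of Rxra was lost without either macrophage library, Ly6C-low replicate 1 or Ly6C-high replicate 1, with adjusted p up to 0.131. Id3, a factor that Kupffer cells need, was at 1453 and 1795 CPM against 912, 1162, 1621 and 897 CPM (adjusted p = 0.945) and Maf at 267 and 437 CPM against 183, 145, 118 and 186 CPM, neither of which passed. None of 16 monocyte factors passed in the main comparison. On the 3 compared groups alone 4 of 15 tested were called lower, against 1.7% of all genes, and DESeq2 called 3 lower, of 310 over all genes. Runx3, a Runt factor, was at 14.7 and 10.004 CPM in macrophages, 204 and 114 in Ly6C-low and 107 and 92.5 in Ly6C-high monocytes (adjusted p = 0.0527), below every monocyte library, and Klf4 was at 39.95 and 104 CPM in macrophages, 275 and 221 in Ly6C-low and 192 and 226 in Ly6C-high monocytes (adjusted p = 0.565). Runx3 was called lower with median-of-ratios scaling, on the 3 compared groups alone and by DESeq2, and was not called with the monocytes as 1 group. None of 19 niche receptors and their effectors passed in the main comparison. On the 3 compared groups alone 1 was called higher and 2 lower, against 3.59% and 1.7% of all genes. Rbpj, the DNA-binding partner of Notch, was at 26.02 and 28.7 CPM against 129, 95.7, 76.9 and 47.6 CPM (adjusted p = 0.288), and Acvrl1, the receptor ALK1 for BMP9 and BMP10, at 130.0 and 116 CPM against 31.05, 77.9, 49.2 and 37.6 CPM (adjusted p = 0.526).

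**Figure D3:**
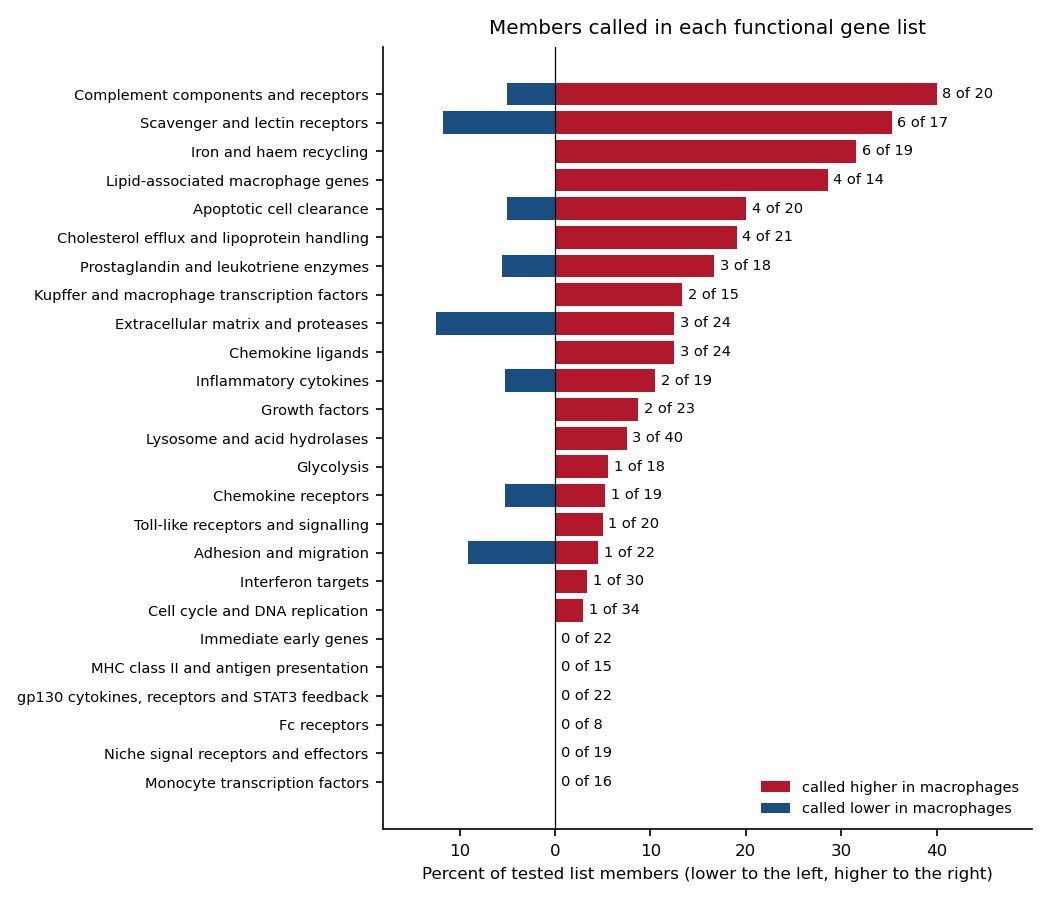
Percent of tested members of each of 25 functional gene lists that were called higher (red, to the right) or lower (blue, to the left) in macrophages than in monocytes, with the count called higher beside each bar. Complement, scavenger receptor and iron lists have the largest shares called higher, while 6 lists have no called member. Lists and members were chosen with earlier results of these data known, so their order is descriptive and does not rank functions.

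Of 40 lysosome genes, 3 rose (Ctsf, Cd63 and Ctsd) and none fell, with a median log2 fold change of 0.70. The count was 1 without any of the 6 compared libraries and 5 without either normal macrophage library and 8 without either neutrophil library. Macrophages were above all monocytes for 25 of the 40, against 10.8% of all genes. Ctsf, a cysteine protease, was at 183 and 128 CPM in macrophages, 8.36 and 10.7 in Ly6C-low and 6.27 and 9.18 in Ly6C-high monocytes (log2 fold change 4.18, SE 0.53, adjusted p = 3.34e-04), and Ctsd, the aspartic protease cathepsin D, at 3202 and 2516 CPM in macrophages, 656 and 699.9 in Ly6C-low and 804 and 755 in Ly6C-high monocytes (log2 fold change 1.98, SE 0.42, adjusted p = 0.0361). The call of Ctsd was lost without any of the 6 compared libraries or either T cell library, with adjusted p up to 0.466. Factors of the MiT/TFE family drive lysosome genes through an E-box, the 8-base form of which is TCACGTGA and the 6-base core CACGTG. Both read the same on either strand and the first holds the second. Promoter windows of 300 bases, 250 before the start of a gene and 50 after it, were found in RefSeq (GRCm38.p6) for 31 of the 40 genes. The 8-base form was in 5 of them (16.1%) and the core in 13 (41.9%). Among all 27025 genes with such a window, the shares were 1.12% and 8.09%. Among the 16301 tested genes with a window, they were 1.57% and 9.52%. Of the 3 called genes, Ctsd and Ctsf hold the core and Cd63 does not. The stretches around these matches are shown because they lie before the start of called genes, 5′ to 3′ on the strand of the gene with the motif in capitals.
Ctsd, chr7:142387908-142387937, minus strand, 8-base form starting 99 bases before the start: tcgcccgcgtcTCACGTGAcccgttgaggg
Ctsd, chr7:142388055-142388077, minus strand, core starting 245 bases before the start: tccccCACGTGacctgtatccag
Ctsf, chr19:4855074-4855103, plus strand, core starting 79 bases before the start: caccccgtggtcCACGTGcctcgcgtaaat
These are matches of letters and not measured sites. Members with a match that did not pass include Lamp1 (log2 fold change 0.65) and Mcoln1 (0.44). The factors themselves did not pass, with Tfeb at 41.8 and 26.01 CPM against 37.5, 68.5, 59.01 and 64.4 CPM, Tfe3 at 82.99 and 66.9 CPM against 58.4, 59.9, 68.9 and 70.2 CPM and Mitf at 15.8 and 33.1 CPM against 24.4, 26.7, 21.1 and 19.4 CPM for macrophages against monocytes.

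Chemokine ligands that rose were Cxcl13, Ccl24 and Pf4, of 24 tested, and none fell. The count was 8 without either neutrophil library. Cxcl13, which draws B cells, was at 109 and 109.7 CPM in macrophages, 1.51 and 0 in Ly6C-low and 0 and 0.918 in Ly6C-high monocytes (log2 fold change 7.45, SE 1.20, adjusted p = 0.0033). Ccl24, which draws eosinophils, was at 335 and 275 CPM in macrophages, 25.98 and 16.3 in Ly6C-low and 46.2 and 39.7 in Ly6C-high monocytes (log2 fold change 3.34, SE 0.44, adjusted p = 4.47e-04). Pf4, or platelet factor 4, was at 309.5 and 440.0 CPM in macrophages, 122 and 78.2 in Ly6C-low and 31.97 and 42.6 in Ly6C-high monocytes (log2 fold change 2.62, adjusted p = 0.00221). The call of Cxcl13 was lost without Ly6C-high replicate 1, with adjusted p of 0.0535. The call of Pf4 was lost without macrophage replicate 2, with adjusted p of 0.0565. The monocyte attractant Ccl2 was at 134 and 147 CPM in macrophages, 78.6 and 46.7 in Ly6C-low and 280.3 and 99.2 in Ly6C-high monocytes, with overlapping groups (adjusted p = 1.00). Cxcl1, a neutrophil attractant, was at 56.97 and 138 CPM in macrophages, 5.69 and 7.97 in Ly6C-low and 4.48 and 13.5 in Ly6C-high monocytes, above all monocytes without passing (adjusted p = 0.145). Ccl9 was at 257 and 370.2 CPM in macrophages, 674 and 1235 in Ly6C-low and 1890.0 and 1097 in Ly6C-high monocytes, below all monocytes without passing (adjusted p = 0.354). Among 19 chemokine receptors Ccr3 rose and Ccr2 fell. Ccr3, known from eosinophils, was at 218 and 197 CPM in macrophages, 7.92 and 2.28 in Ly6C-low and 1.05 and 2.18 in Ly6C-high monocytes (log2 fold change 6.16, SE 0.60, adjusted p = 2.15e-05), and Cx3cr1, for fractalkine, did not pass (adjusted p = 0.544).

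The series has IL-6 and STAT3 in hepatocytes as a further subject, and the cytokines of that pathway are given for both cell kinds. Of 22 genes for gp130 cytokines, receptors and STAT3 feedback, none passed in the main comparison. Il6 was at 4.56 and 18.1 CPM in macrophages, 2.94 and 1.55 in Ly6C-low and 1.20 and 2.18 in Ly6C-high monocytes (log2 fold change 2.53, adjusted p = 0.828), with both macrophage libraries above all monocytes and macrophage replicate 2 above replicate 1. Osm, or oncostatin M, was at 12.5 and 22.4 CPM in macrophages, 57.2 and 43.9 in Ly6C-low and 167 and 97.1 in Ly6C-high monocytes, with both macrophage libraries below all monocytes (adjusted p = 0.742). The receptor chain Il6ra was at 85.2 and 118 CPM in macrophages, 159 and 228 in Ly6C-low and 303 and 342 in Ly6C-high monocytes (adjusted p = 0.38), and the shared chain Il6st at 86.3 and 62.8 CPM in macrophages, 59.2 and 67.8 in Ly6C-low and 68.6 and 91.7 in Ly6C-high monocytes. Il11ra1 was at 63.01 and 62.9 CPM in macrophages, 15.5 and 25.5 in Ly6C-low and 5.08 and 11.9 in Ly6C-high monocytes (adjusted p = 0.098). Socs3, which STAT3 induces, was at 20.6 and 27.5 CPM in macrophages, 31.5 and 37.7 in Ly6C-low and 48.1 and 90.6 in Ly6C-high monocytes. With the 3 compared groups alone, Il11ra1, Il6ra and Osm were called and Il6 was not (adjusted p = 0.0047, 0.0307, 0.00449 and 0.0926). That fit called 1 of 21 tested members higher and 2 lower, against 3.59% and 1.7% of all genes. DESeq2 called 1 higher and 2 lower, of 477 and 310 over all genes.

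Of 19 inflammatory cytokine genes, 2 rose and 1 fell. Il18bp, the decoy that binds IL-18, was at 1142 and 1144 CPM in macrophages, 33.7 and 37.3 in Ly6C-low and 6.57 and 16.99 in Ly6C-high monocytes (log2 fold change 5.80, SE 0.55, adjusted p = 1.74e-05). Il1a was at 114 and 247 CPM in macrophages, 12.2 and 10.9 in Ly6C-low and 12.1 and 16.5 in Ly6C-high monocytes (log2 fold change 3.81, SE 0.56, adjusted p = 0.00152), while Il1b was at 353 and 736 CPM in macrophages, 731 and 699 in Ly6C-low and 923 and 470.3 in Ly6C-high monocytes with overlapping groups. Il1r2, a decoy receptor for IL-1, was at 3.08 and 0.286 CPM in macrophages, 52.2 and 40.4 in Ly6C-low and 15.8 and 9.76 in Ly6C-high monocytes (log2 fold change -3.88, adjusted p = 0.0324). The call of Il1r2 was lost without macrophage replicate 2, either Ly6C-low library or Ly6C-high replicate 1, with adjusted p up to 0.252. Tnf was at 20.1 and 55.5 CPM against 32.7, 57.7, 38.2 and 33.7 CPM and Il10 at 18.5 and 50.1 CPM against 3.74, 5.18, 0.598 and 1.95 CPM (adjusted p = 0.198). Of 23 growth factors, Igf1 and Hbegf rose, a count that was 1 without any of the 6 compared libraries and 4 without neutrophil replicate 2 and 5 without neutrophil replicate 1. Igf1 was at 913 and 943 CPM in macrophages, 131 and 115 in Ly6C-low and 53.3 and 62.7 in Ly6C-high monocytes (log2 fold change 3.46, SE 0.37, adjusted p = 4.76e-05), and Hbegf, a ligand of the EGF receptor, at 82.002 and 134 CPM in macrophages, 7.38 and 4.04 in Ly6C-low and 3.59 and 5.51 in Ly6C-high monocytes (log2 fold change 4.40, adjusted p = 0.0162). The call of Hbegf was lost without any of the 6 compared libraries, with adjusted p up to 0.149. Hgf, which hepatocytes receive through Met, was at 15.3 and 24.4 CPM against 17.2, 35.1, 15.2 and 17.9 CPM with overlapping groups.

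None of 15 class II and costimulation genes passed, and 12 had negative fold changes (median -0.94). Macrophages were below all monocytes for 7 of the 15, against 10.8% of all genes, and the summed level was 36308 and 56491 CPM in macrophages and 69438 to 156445 CPM in monocytes. DESeq2 called 4 of the 15 lower, of 310 lower over all genes. On the 3 compared groups alone edgeR called 2 of the 15 lower, against 320 of 18779 genes (1.7%). H2-Ab1, a class II chain, was at 10124 and 18482 CPM in macrophages, 27448 and 56167 in Ly6C-low and 37382 and 22654 in Ly6C-high monocytes, and the class II transactivator Ciita at 143 and 125 CPM in macrophages, 581 and 439 in Ly6C-low and 284 and 326 in Ly6C-high monocytes (adjusted p = 0.178). Of 30 interferon targets, Iigp1, a GTPase against intracellular pathogens, rose (28.5 and 20.3 CPM against 3.91, 3.93, 1.05 and 1.26 CPM, log2 fold change 3.51, adjusted p = 0.00766). The call of Iigp1 was lost without any of the compared libraries except macrophage replicate 2, with adjusted p up to 0.132. None of 22 immediate early genes passed, with Fosl2 at 33.05 and 65.2 CPM against 107, 85.5, 110.0 and 102 CPM and Nr4a2 at 7.15 and 13.1 CPM against 46.2, 33.9, 30.8 and 32.6 CPM. Of 20 Toll-like receptor genes, Tlr12, a sensor of profilin, rose (56.5 and 34.5 CPM against 2.05, 1.86, 1.34 and 0.918 CPM, log2 fold change 4.93, adjusted p = 0.00187). The call of Tlr12 was lost without macrophage replicate 1, with adjusted p of 0.0509.

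Of 34 genes for the cell cycle and DNA replication, Tk1, the thymidine kinase of S phase, rose (207 and 120.3 CPM against 17.9, 24.8, 2.69 and 11.4 CPM, log2 fold change 3.73, SE 0.53, adjusted p = 0.00104) and none fell. The call of Tk1 was lost without macrophage replicate 1, with adjusted p of 0.0529. Macrophages were above all monocytes for 23 of the 34, against 10.8% of all genes (median log2 fold change 1.70). Mki67, of cycling cells, was at 17.3 and 52.8 CPM in macrophages, 23.8 and 25.8 in Ly6C-low and 11.8 and 10.6 in Ly6C-high monocytes, so macrophage replicate 1 lay within the monocyte range. Top2a was at 50.1 and 36.9 CPM in macrophages, 25.5 and 17.3 in Ly6C-low and 11.1 and 8.38 in Ly6C-high monocytes (adjusted p = 0.405). Ly6C-low libraries were above both Ly6C-high libraries for 20 of the 34 and below them for 1. The share of all genes that separate the monocyte groups in this way was not computed, so this count cannot be set against all genes. Between the monocyte groups 0 of the 34 were called, over all groups or on the 3 compared groups alone. The median log2 fold change of Ly6C-high minus Ly6C-low was -1.03 for this list and 0.000323 over all genes tested. The fit of the 3 compared groups called 12 of 34 higher, against 3.59% of all genes.

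Enzymes of prostaglandin and leukotriene synthesis divided. Of 18, Hpgd, Ptgs1 and Hpgds rose and Alox5 fell. Hpgd, which inactivates prostaglandins, was at 1018 and 809 CPM in macrophages, 46.2 and 49.2 in Ly6C-low and 26.6 and 53.6 in Ly6C-high monocytes (log2 fold change 4.38, SE 0.41, adjusted p = 1.55e-05). Ptgs1, the constitutive cyclooxygenase, was at 527 and 589 CPM in macrophages, 67.6 and 79.1 in Ly6C-low and 48.7 and 67.5 in Ly6C-high monocytes (log2 fold change 3.10, SE 0.40, adjusted p = 4.30e-04), and Hpgds, which makes prostaglandin D, at 86.6 and 93.2 CPM in macrophages, 32.9 and 45.2 in Ly6C-low and 8.96 and 11.5 in Ly6C-high monocytes (log2 fold change 2.17, adjusted p = 0.0466). Alox5, the first enzyme of leukotriene synthesis, was at 0.863 and 0 CPM against 3.56, 9.63, 24.1 and 10.7 CPM (log2 fold change -4.68, adjusted p = 0.0366). The call of Hpgds was lost without any of the 6 compared libraries, with adjusted p up to 0.421. The call of Alox5 was lost without macrophage replicate 2, either Ly6C-low library or Ly6C-high replicate 1, with adjusted p up to 0.254. Of 18 glycolysis genes, Hk3, a hexokinase of myeloid cells, rose (252 and 212 CPM against 46.4, 27.5, 105 and 80.7 CPM, log2 fold change 1.98, adjusted p = 0.0408). The call of Hk3 was lost without any of the 6 compared libraries, with adjusted p up to 0.511.

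Matrix and adhesion genes went both ways. Of 24 matrix and protease genes, Mmp12, Mmp13 and Sdc3 rose and Fn1, F13a1 and Thbs1 fell. Falls numbered 0 without macrophage replicate 2 and 1 without macrophage replicate 1 and 5 without either normal macrophage library and 6 without either neutrophil library. Sdc3, a cell surface heparan sulfate proteoglycan, was at 908 and 751 CPM in macrophages, 98.5 and 121 in Ly6C-low and 40.9 and 101 in Ly6C-high monocytes (log2 fold change 3.23, SE 0.45, adjusted p = 8.23e-04). Mmp13, a collagenase, was at 27.01 and 87.6 CPM in macrophages, 2.31 and 6.005 in Ly6C-low and 1.64 and 5.05 in Ly6C-high monocytes (log2 fold change 3.93, adjusted p = 0.0316), and Thbs1, or thrombospondin, at 6.41 and 24.6 CPM in macrophages, 203 and 114 in Ly6C-low and 377 and 265 in Ly6C-high monocytes (log2 fold change -3.86, adjusted p = 0.0408). The calls of Mmp13 and Thbs1 were lost without any of the 6 compared libraries, with adjusted p up to 0.736 and 0.829. Of 22 adhesion genes, Itga9 rose (282 and 410.0 CPM against 91.6, 93.7, 29.9 and 64.2 CPM, log2 fold change 2.39, adjusted p = 0.013) and Itgam and Itgb7 fell. Itgb7, the partner of alpha-4 in binding gut vessels, was at 46.6 and 24.5 CPM against 176, 279, 256 and 198 CPM (log2 fold change -2.68, adjusted p = 0.041). The call of Itga9 was lost without any of the compared libraries except Ly6C-high replicate 2, with adjusted p up to 0.183. The call of Itgb7 was lost without any of the 6 compared libraries, with adjusted p up to 0.456.

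**Figure D4:**
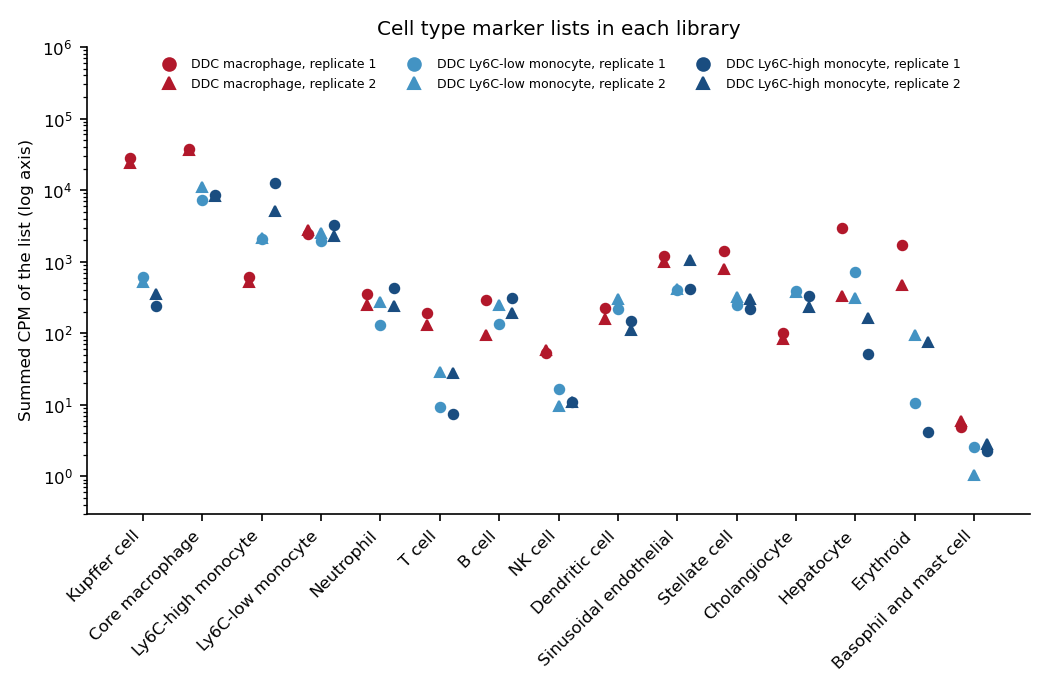
Summed CPM (log axis) of 15 cell type marker lists, 1 point per library. Kupffer cell, core macrophage, T cell, NK cell, stellate, erythroid and basophil and mast cell sums are higher in both macrophage libraries (red) than in all monocyte libraries, and the hepatocyte and erythroid sums are highest in macrophage replicate 1.

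Markers of cells other than the sorted ones differed between the groups. Hepatocyte markers came to 2988 CPM in macrophage replicate 1, 333 CPM in macrophage replicate 2 and 51.4 to 711 CPM in monocytes, and 4 of 12 rose (Tat, Fga, Alb and Apoa1). Alb was at 914 and 109 CPM in macrophages, 218 and 72.1 in Ly6C-low and 10.9 and 34.8 in Ly6C-high monocytes (log2 fold change 3.15, adjusted p = 0.0295), with macrophage replicate 2 inside the monocyte range. Erythroid markers came to 1698 and 476 CPM in macrophages and 4.18 to 95.4 CPM in monocytes, and of 7, Hba-a1 rose (908 and 279.7 CPM against 6.49, 55.9, 1.64 and 47.3 CPM, log2 fold change 4.42, adjusted p = 0.0412), a gene with a near-identical copy. T cell markers came to 189 and 129 CPM in macrophages and 7.47 to 28.3 CPM in monocytes. Icos (71.03 and 51.6 CPM against 0.178, 2.28, 1.20 and 1.95 CPM) and Cd3g (18.5 and 8.57 CPM against 0, 0.207, 0.448 and 0.574 CPM) rose of 10. Their calls, and those of the hepatocyte genes and Hba-a1, did not hold without macrophage replicate 1. The calls of Tat, Alb and Apoa1 were lost without macrophage replicate 1, either Ly6C-low library or Ly6C-high replicate 1, with adjusted p up to 1.00, 1.00 and 1.00. The calls of Fga and Cd3g were lost without any of the compared libraries except macrophage replicate 2, with adjusted p up to 1.00 and 0.152. The call of Hba-a1 was lost without any of the compared libraries except Ly6C-high replicate 2, with adjusted p up to 0.799. The call of Icos was lost without macrophage replicate 1, Ly6C-low replicate 1 or either Ly6C-high library, with adjusted p up to 0.0883.

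Stellate cell markers came to 1401 and 802 CPM in macrophages and 220.4 to 322 CPM in monocytes, and of 10, Dcn, a small matrix proteoglycan, rose (599 and 381 CPM against 115, 105, 14.04 and 58.99 CPM, log2 fold change 2.95, adjusted p = 0.00483). Sinusoidal endothelial markers came to 1194 and 974 CPM in macrophages and 398 to 1041 CPM in monocytes, and of 11, Stab2 rose (214 and 225 CPM against 25.4, 13.5, 22.7 and 74.4 CPM, log2 fold change 2.84, adjusted p = 0.0078). The call of Dcn was lost without macrophage replicate 1 or either Ly6C-low library, with adjusted p up to 0.134. The call of Stab2 was lost without either macrophage library or Ly6C-low replicate 2, with adjusted p up to 0.0747. Cholangiocyte markers summed to 100.5 and 84.2 CPM in macrophages and 235 to 384 CPM in monocytes, most of it Spp1. Of 12 neutrophil markers S100a8 rose (285 and 204 CPM in macrophages, 24.998 and 51.97 in Ly6C-low and 11.4 and 4.82 in Ly6C-high monocytes, log2 fold change 3.80, SE 0.48, adjusted p = 3.01e-04), while its partner S100a9 was at 2.10 and 0 CPM against 5.87, 17.1, 0.747 and 0.918 CPM and Camp, Stfa2l1 and Ly6g were at or near 0 in macrophages. None of the 8 B cell, 8 NK cell, 10 dendritic cell, 8 cholangiocyte and 5 basophil and mast cell markers passed. The part of any such cells in the genes above was not tested.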

How the data were processed

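Bulk RNA-seq counts of sorted liver cells were analysed. The authors deposited raw counts per gene for 12 immune cell libraries, and per the submitters' processing notes reads were handled with STAR, HTSeq and DESeq2 on mm10; their versions and the strand setting are not given in the sources used. The table of hepatocyte libraries was not used here. All columns were matched to a sample by name, and 0 were left over. EGFP counts entered neither the library sizes nor the fits.

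Of 51912 genes, 7434 had no count, and 27759 passed edgeR's filterByExpr by group. Counts were scaled by TMM and tested with edgeR's quasi-likelihood F test (edgeR 4.0.16, limma 3.58.1, R 4.3.3) over 6 groups, with Benjamini-Hochberg adjustment over all genes tested and a threshold of 0.05. The common biological coefficient of variation was 1.00 over all groups and 0.608 over the 3 compared ones. CPM used TMM-scaled library sizes and is not per length, so levels are compared between libraries and not between genes. Standard errors are approximate, from the fold change and its F value. Scripts were tested on simulated data.

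Named genes were Clec4f, Vsig4, Ccr2, Ace, Ly6c1, Ly6c2 and Il6, the 12 higher and 12 lower called genes with the largest fold changes at a mean of at least 20 CPM without overlap, and from each list up to 4 called members, or 2 where none was called. Members and lists were chosen with earlier results of these data known. Other genes with values, such as Adgre1, Itgax, Trem2, Osm, S100a9 and those of the last observations, were chosen after their values were seen. Alternatives were other scaling, no filter, a replicate block, the compared groups alone, leaving out cell types or single libraries, DESeq2 1.42.0 and the monocytes as 1 group. Leaving out a library kept the same genes tested, a choice made after seeing that filtering again raised the counts, and both are given.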

Additional observations from a re-analysis of the deposited data

Results flagged for a closer look

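EGFP, a reporter that wild-type mice lack, had 21 counts in Ly6C-high replicate 1, a signal outside the genes tested, and 0 in the other 5 compared libraries. Among the other immune libraries it had 11 counts in normal macrophage replicate 1, 9 and 22 in T cells and 3 in neutrophil replicate 1. No group had enough samples for a search for outlying libraries.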

How the results depend on the processing

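The 203 genes called between macrophages and monocytes became 554 with no filter, 994 with the compared groups alone, 422 without neutrophils and 787 by DESeq2. They split into 674 higher and 320 lower with the compared groups alone and 477 and 310 by DESeq2, against 168 and 35. Against Ly6C-low monocytes 66 calls became 113 with median-of-ratios scaling, 284 with no filter, 534 with the compared groups alone, 171 without neutrophils and 497 by DESeq2. Against Ly6C-high monocytes 146 became 438, 703, 273 and 637 with no filter, the compared groups alone, without neutrophils and by DESeq2. Between the monocyte groups 0 became 1 with median-of-ratios scaling, 74 with no filter, 16 with the compared groups alone, 3 without neutrophils and 28 by DESeq2. Leaving out 1 library gave 75 to 465, 5 to 204, 35 to 307 and 0 to 5 calls in these 4 comparisons, and with the filter done again, added after seeing the data, 182 to 752, 88 to 398, 150 to 559 and 6 to 63. Deviations of replicate 1 from its group mean correlated between the compared groups at 0.0651, -0.000424 and -0.0462 over 19974 genes. With 2 libraries a group and no animals given in the labels, these values cannot show whether replicate numbers pair the libraries. A replicate block gave 239, 78, 182 and 2 calls. Without Gm10800, also added later, the counts were 227, 66, 156 and 0. Of 203 genes, 59 were called under all 21 alternatives. Of 79 called named genes, 38 lost the call without macrophage replicate 1 and 14 with the monocytes as 1 group. Ly6c1 (log2 fold change 1.75) ranged from -2.08 without macrophage replicate 1 to 2.68 without macrophage replicate 2, and Cpa3 (2.10) from -3.76 without macrophage replicate 2 to 3.89 without Ly6C-high replicate 1, neither of them called; the cause was not tested. Median-of-ratios scaling moved the median log2 fold change of all genes by -0.117. With 2 libraries a group, intervals are wide and low genes are limited by their counts.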

Other observations

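How far the calls of the genes in this section depend on single libraries is not given. Among called genes in no list, chosen after their values were seen, several rose at high levels. Wfdc17, a secreted protease inhibitor-like protein of macrophages, was at 7942 and 8062 CPM against 705, 337, 413 and 233 CPM for macrophages against monocytes (log2 fold change 4.29, SE 0.47, adjusted p = 6.28e-05). Gpx3, a secreted glutathione peroxidase, was at 1119 and 821 CPM against 32.4, 58.4, 65.9 and 97.3 CPM (log2 fold change 3.99, SE 0.50, adjusted p = 3.04e-04). Vcam1, which binds the integrin VLA-4 of blood cells, was at 453 and 1031 CPM against 32.1, 37.7, 14.2 and 27.8 CPM (log2 fold change 4.78, SE 0.48, adjusted p = 3.02e-05), and Siglec1, the sialic acid receptor CD169, at 97.9 and 105 CPM against 11.7, 8.59, 12.4 and 32.6 CPM (log2 fold change 2.75, SE 0.51, adjusted p = 0.0128). In these 4 genes both macrophage libraries lay above all monocytes.

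Among genes that fell, Ahnak, a very large scaffold protein, was at 17.6 and 14.6 CPM against 264, 129, 259 and 234 CPM (log2 fold change -3.77, SE 0.58, adjusted p = 0.00221). Lsp1, an actin-binding protein of leukocytes, was at 274 and 234 CPM against 1072, 2102, 2557 and 1314 CPM (log2 fold change -2.79, SE 0.59, adjusted p = 0.0316), Sorl1, a sorting receptor, at 23.6 and 29.4 CPM against 304, 295, 398 and 384 CPM (log2 fold change -3.69, SE 0.65, adjusted p = 0.00823) and Napsa, an aspartic protease, at 61.7 and 57.6 CPM against 327, 443, 525 and 347 CPM (log2 fold change -2.78, SE 0.56, adjusted p = 0.0251). All 4 were below every monocyte library.

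Genes of hepatocytes outside the marker list were called higher too. Ahsg, or fetuin, was at 423 and 35.4 CPM against 49.8, 40.1, 2.24 and 16.4 CPM (log2 fold change 3.48, adjusted p = 0.0359) and Rbp4, the retinol carrier, at 431 and 40.6 CPM against 87.4, 35.6, 4.63 and 14.2 CPM (log2 fold change 3.29, adjusted p = 0.0325). Both were far higher in macrophage replicate 1 than in replicate 2, as the hepatocyte sum was, and the part of hepatocyte RNA was not tested.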
